A study of Mus musculus with 4 samples.

Results

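RNA of fetal mouse forebrain was compared between offspring of ethanol-treated and saline-treated C57BL/6J dams. The comparison rests on 2 of the 4 arrays of the study, the forebrain array of the ethanol group (EtOH) and that of the phosphate-buffered saline group (PBS). It takes in every gene with a probe set assigned to a single symbol, which were 19938 genes, and 11013 of them passed an expression filter and are called kept genes here. Dams of both groups were dosed intragastrically for 5 days, embryonic days 8 to 12. The EtOH dams received 2.9 g of ethanol per kg per day as a 15% solution and the PBS dams received the saline. Fetuses were collected on embryonic day 18, which was 6 days after the last dose. The other pair of arrays holds hippocampus of the same groups. Litters, fetal sex, pooling of fetuses and whether forebrain and hippocampus came from the same fetuses are not in the labels. With 1 array in each group there is no spread between animals and no test. Every difference below therefore describes a pair of arrays, and differences between litters or array runs cannot be told apart from ethanol.

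Ethanol crosses the placenta and reaches the fetal brain. The dosing days cover closure of the neural tube and the first neurogenesis of the forebrain, and at the day of collection the mouse cortex is finishing neurogenesis while the making of glia begins. Bulk RNA from such tissue mixes dividing progenitors, young neurons, early glia, vessels and meninges. Their proportions and the levels within cells both enter a reading, so fewer cells of a type and less RNA per cell cannot be told apart.

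Readings are on a log2 scale, on which a difference of 0.585 stands for 1.5-fold and 0.263 for 1.2-fold. Over all probe sets both forebrain arrays had a median of 7.11, which is also the filter value. The tissue label was checked against position genes. All 8 telencephalon genes with a probe set were kept, such as the cortical transcription factor gene Tbr1, which read 10.78 on the PBS array and 10.68 on the EtOH array. Of 19 genes of midbrain and hindbrain only Lmx1b was kept, and of 37 Hox genes, which pattern hindbrain and spinal cord, only Hoxa4, named after its values were seen. Kept status rests on the mean of all 4 arrays, so it does not check either forebrain array alone. Tbr1 read high on both forebrain arrays, but also on the hippocampus PBS and EtOH arrays, at 10.76 and 10.53. The check therefore does not tell forebrain from hippocampus.

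The arrays also differed in sex-linked RNA, which bears on how alike the sampled fetuses were. Eif2s3y, a Y-linked translation factor subunit, read 7.94 on the forebrain PBS array, 8.83 on the forebrain EtOH array, and 8.79 and 8.46 on the hippocampus PBS and EtOH arrays. Uty, a Y-linked relative of a histone demethylase, read 7.28, 8.07, 7.97 and 7.62 in the same order, and the Y-linked demethylase gene Kdm5d read 7.36, 7.93, 7.98 and 7.72. For all 3 the forebrain PBS array was the lowest of the 4. Xist, the RNA that coats the inactive X chromosome, read 11.48 and 11.10 in forebrain and 11.32 and 11.38 in hippocampus, so the same array was the highest. The sex-determining gene Sry, near the filter value, read 7.17 and 7.28 in forebrain, and the Y-linked genes Uba1y, Usp9y, Zfy1, Zfy2 and Srsy lay below the filter. The 4 probe sets of Uba1y differed by -0.02 to 0.63 and the 19 of Srsy by -0.03 to 0.45, while Usp9y, Zfy1 and Zfy2 differed by 0.01, -0.01 and -0.08. Of 7 kept genes in a list of Xist and X-linked genes that escape inactivation, 6 were lower on the forebrain EtOH array. Their median was -0.05, with the demethylase gene Kdm5c at -0.14, and 53.8% of all kept genes were lower. In hippocampus 5 of the 7 were lower as well, with a median of -0.01 and Kdm5c at -0.10. Of all 11013 kept genes 7632 were lower there, with a median of -0.08. Eif2s3y, Uty and Kdm5d were also lower in hippocampus, and Xist differed by 0.05. Eif2s3y, Uty, Kdm5d and Xist thus went with treatment in forebrain, and the part of fetal sex in the other differences was not tested.

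Most genes read nearly alike on both forebrain arrays. Of the 11013 kept genes, 77 were at least 1.2-fold higher on the EtOH array (0.699%) and 56 at least 1.2-fold lower (0.508%), while 98.8% lay within 1.2-fold. At 1.5-fold, 5 genes were higher (0.0454%) and 3 lower (0.0272%). The standard deviation of the differences was 0.0941 and their median -0.01. The balance of higher and lower genes depended on the scaling. Of the genes past 1.2-fold 57.9% were higher with the deposited values, against 70.6% (101 and 42 genes) when arrays were centred on their kept-gene medians, an alternative chosen after seeing the data. At 1.5-fold the same centring gave 6 higher and 1 lower, or 85.7% against 62.5%. The 1.5-fold line passes close to several genes: Mir692-1 and Igf2bp1 lay at 0.59 and -0.59, just past it, and Kdm5d at 0.57 just short of it.

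Weak signals carried more of the spread. In the lowest of 10 equal bins of kept genes by level the standard deviation was 0.120, with 15 genes 1.2-fold higher and 17 lower, and in the highest bin it was 0.0651, with 2 and 1. Probe sets of the same gene give a measure of error within the arrays. Among 681 genes with several probe sets above the filter, the differences of the highest pair had a standard deviation of 0.105 between them, and 404 genes (59.3%) had all their probe sets on the same side of 0. Of 8 such genes past 1.2-fold by their highest probe set, 5 had the same sign in the next and only Nova1 was past 1.2-fold in both. A difference of about 0.1 in a single gene is therefore no larger than the disagreement between probe sets of a gene, and this spread does not include that between animals.

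**Figure D1:**
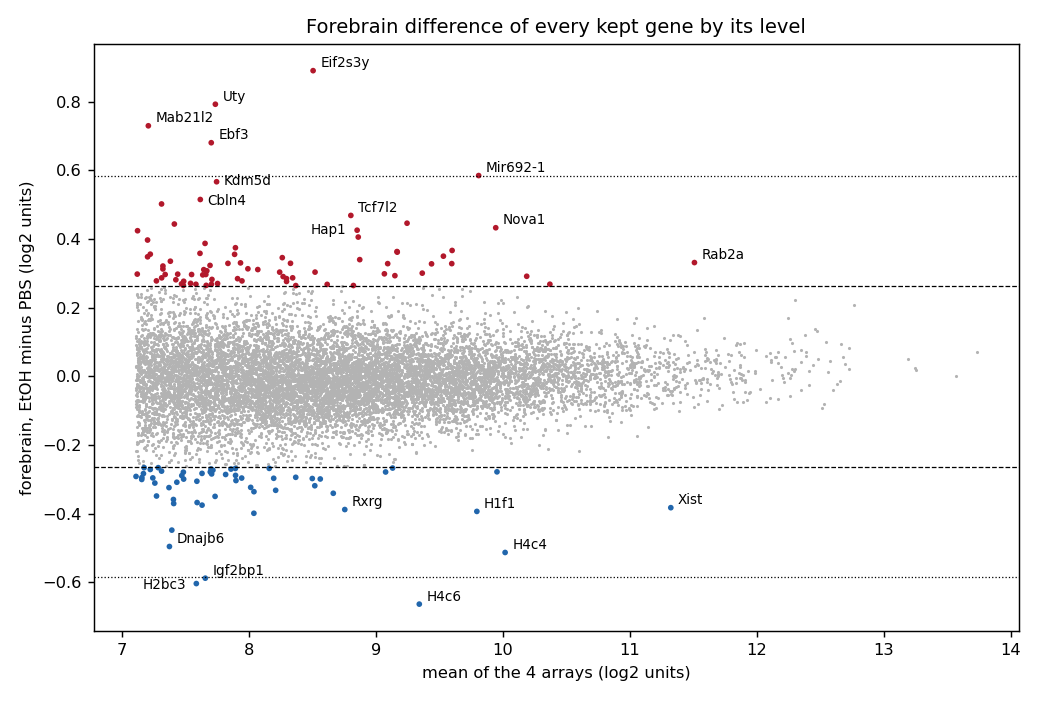
Forebrain difference of each kept gene (EtOH minus PBS, log2 units) against its mean over the 4 arrays (log2 units); each point is a gene, coloured where it is at least 1.2-fold apart (red higher, blue lower), with dashed lines at 1.2-fold and dotted lines at 1.5-fold. Most points lie within the dashed lines, the scatter narrows from a standard deviation of 0.120 in the lowest of 10 level bins to 0.0651 in the highest, and Eif2s3y at 0.89 and H4c6 at -0.66 mark the ends.

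Beside the Y-linked genes, the genes highest on the forebrain EtOH array included several transcription factor, splicing and synapse genes. Mab21l2, which is needed for eye development, read 7.07 on the PBS array and 7.80 on the EtOH array, a difference of 0.73. Ebf3, which encodes a transcription factor of early-born neurons such as Cajal-Retzius cells, read 7.58 and 8.26, a difference of 0.68. Both PBS readings lie near the filter value of 7.11, where the scatter is widest, and that of Mab21l2 lies below it. Mab21l2 passed the filter only through its readings on the EtOH arrays. Cbln4, a secreted organizer of synapses, differed by 0.52, Tcf7l2, a Wnt effector strongly expressed in thalamus, by 0.47, and Rit2, a Ras-like GTPase of neurons, by 0.45. Car8, a carbonic anhydrase relative that binds the IP3 receptor, differed by 0.44 and Hap1, which encodes the huntingtin-associated protein, by 0.43. Nova1, a regulator of splicing in neurons, rested on more than a single probe set: the higher of its probe sets read 9.99 and 10.42 and the next 9.49 and 9.82, so the differences were 0.43 and 0.33. The remaining genes of the highest 15 were Pate11 at 0.41, the gelatinase gene Mmp9 at 0.40 and the zinc finger gene Zfp935 at 0.39, along with Mir692-1.

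Relative to the scatter of genes of like level, the order changed. Dividing by the standard deviation of the same of 20 level bins, Eif2s3y stood 9.53 standard deviations up, Mir692-1 7.68, Uty 6.27, Mab21l2 6.00 and Nova1 5.63. On the lower side H4c6 stood at -8.09, H4c4 at -6.67, Xist at -6.00, H2bc3 at -5.37 and H1f1 at -5.16. Next came Igf2bp1 at -4.65, Rxrg at -4.47 and Dnajb6 at -4.15. H4c6, H4c4, H2bc3 and H1f1 encode histones and the others do not. All were picked by these same differences, and 15 of the 11013 kept genes are listed replication-dependent histones.

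Replication-dependent histones had the lowest median of the gene groups. These genes lie in clusters, supply histones to newly made DNA and are switched on in S phase, and their messages end in a stem-loop in place of a poly(A) tail. H4c6, which encodes histone H4, read 9.73 on the forebrain PBS array and 9.07 on the EtOH array, a difference of -0.66. H4c4 read 10.34 and 9.83, and H4c3 7.62 and 7.33. Of the H2B genes, H2bc3 read 7.84 and 7.24, and H2bc18 stood at 7.45 after PBS with a difference of -0.45. H1f1, a linker histone gene, read 9.82 and 9.42. These 6 are the kept members at least 1.2-fold lower in forebrain, so their lower forebrain EtOH readings follow from that choice. Their hippocampus differences were negative as well, at -0.83, -0.51, -0.53, -0.41, -0.09 and -0.35 for H4c6, H4c4, H4c3, H2bc3, H2bc18 and H1f1.

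Not every histone gene followed. Of 26 listed genes 15 were kept, 11 of them lower and 4 higher, with a median of -0.16. Of all kept genes 53.8% were lower, and their median was -0.01. This background turned with the scaling: with kept-gene centring 44.4% were lower, 55.6% higher, and the median was 0.01. In hippocampus 7632 of the 11013 kept genes were lower on the EtOH array, with a median of -0.08. The 6 above were the kept members at least 1.2-fold lower, against 0.508% of all kept genes. H4c6 and H2bc3 were at least 1.5-fold lower, against 0.0272%. H2bc4 went the other way, at 0.26, and like H4c3 is named after its values were seen. Among the 11 genes below the filter, 7 were lower and 3 at least 1.2-fold lower. Of all 8925 genes below the filter, 48.3% were lower and 4.44% at least 1.2-fold lower. H3c15 (5.58 and 4.78) and H2ac4 (6.32 and 5.82), named after their values were seen, differed by -0.80 and -0.50. Copies of a histone gene are nearly identical in sequence, probe sets may share signal, and their differences are not separate measurements. Variants made outside S phase were less displaced: of 8 kept genes 5 were lower, with a median of -0.06, H2az1 at -0.12 and H2ax at 0.16. Of 8 factors that transcribe or process histone messages 6 were lower, but their median was -0.01 and became 0.01 with kept-gene centring. Among them were Npat, the activator of histone transcription, and Slbp, which binds the stem-loop, at -0.03 and -0.01, the latter named after its values were seen.

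The promoters of the 6 histone genes picked as at least 1.2-fold lower in forebrain are shown. Each line gives the 120 bases before the annotated start, from RefSeq on build GRCm38.p6, 5′ to 3′ along the gene's strand. Capitals mark GGTCCG, the core of the site II element of H4 genes, ATTTGCAT, the octamer of H2B genes, CCAAT and TATAAA, searched on both strands, so that CCAAT also appears as ATTGG. Matches of different motifs did not need to be apart, and overlapping letters count for each.
H4c6, chr13:23551669-23551788, minus strand: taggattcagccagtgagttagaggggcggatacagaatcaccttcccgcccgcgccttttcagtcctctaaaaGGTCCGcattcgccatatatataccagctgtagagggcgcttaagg
H4c4, chr13:23581448-23581567, plus strand: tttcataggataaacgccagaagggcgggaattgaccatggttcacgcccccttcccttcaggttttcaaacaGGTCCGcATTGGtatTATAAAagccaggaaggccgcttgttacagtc
H4c3, chr13:23698459-23698578, minus strand: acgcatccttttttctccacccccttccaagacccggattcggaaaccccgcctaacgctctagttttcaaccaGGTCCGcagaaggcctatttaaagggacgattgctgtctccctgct
H2bc3, chr13:23746614-23746733, plus strand: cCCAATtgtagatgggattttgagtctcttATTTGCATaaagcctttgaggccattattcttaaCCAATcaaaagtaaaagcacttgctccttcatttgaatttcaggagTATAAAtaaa
H2bc18, chr3:96269580-96269699, plus strand: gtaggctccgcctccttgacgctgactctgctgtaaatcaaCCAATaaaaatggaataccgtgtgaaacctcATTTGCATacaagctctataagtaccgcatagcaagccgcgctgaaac
H1f1, chr13:23763548-23763667, plus strand: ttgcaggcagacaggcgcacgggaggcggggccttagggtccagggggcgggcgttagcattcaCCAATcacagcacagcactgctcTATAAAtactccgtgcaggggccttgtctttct

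Within the 250 bases before the start, GGTCCG was found in 4 of the 5 listed H4 genes that have a promoter entry, and in 6.72% of all 32851 promoters. ATTTGCAT was found in 5 of 7 H2B genes and in 1.60% of all promoters. CCAAT was found in 18 of 22 histone genes against 33.8% of all promoters, and TATAAA in 14 of 22 against 12.4%. Some elements were split by family and others shared. GGTCCG was also found in 1 of the 7 H2B promoters, and ATTTGCAT in 0 of the 5 H4 promoters. CCAAT was found in 2 of 5 H4 and 7 of 7 H2B promoters, and TATAAA in 3 of 5 and 4 of 7. A match describes letters in the window and no binding was measured. The 5 genes on chromosome 13 lie in the same histone cluster, and 10 of the 56 genes 1.2-fold lower are on that chromosome, as are 3 of the 77 genes 1.2-fold higher and 396 of the 11013 kept genes.

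Genes of dividing cells read slightly lower beside the histones. Of 19 kept genes of G2 and mitosis 19 were lower, with a median of -0.12, against 53.8% of all kept genes. None of the listed genes was past 1.2-fold, and of all kept genes only 0.508% were at least 1.2-fold lower. Ccnb2, a mitotic cyclin, read 8.36 and 8.11, and Prc1, which organizes the spindle midzone, 7.82 and 7.60. The proliferation marker Mki67 read 8.43 and 8.25. These are small differences that point the same way: with kept-gene centring 17 of 19 were lower. In hippocampus 18 of the 19 were lower, where most kept genes were lower too, by the counts given beside the histones. S-phase genes were more mixed, with 15 of 21 lower and a median of -0.03, from the helicase subunit Mcm7 at -0.15 to thymidylate synthase, Tyms, at 0.22. Of 36 centrosome genes 26 were lower, with Cep76 at -0.40. Genes of radial glia and progenitors, the cells that divide, showed no such tilt: 13 of 23 were higher and 10 lower, with Prom1 at -0.26 and the matrix gene Tnc at 0.22.

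Several other genes stood among the lowest. Igf2bp1, an RNA-binding protein gene of fetal growth, read 7.90 on the PBS array and 7.32 on the EtOH array, and its second probe set, below the filter, read 6.16 and 5.69. The differences of -0.59 and -0.47 have the same sign, as do those of hippocampus. Other genes of the Lin28 and Hmga growth circuit did not share this, with Lin28b at -0.12 and Igf2bp3 at -0.02. Dnajb6, a J-domain partner of the Hsp70 chaperones, read 7.52 and 7.03, while the 46 kept heat shock and J-domain genes had a median of -0.01, with 25 lower and 21 higher. The chloride channel protein gene Clic1 and the lipid antigen-presenting gene Cd1d1 differed by -0.37 and -0.35. The small nucleolar RNA gene Snord35b differed by -0.36 and Cped1 by -0.38.

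**Figure D2:**
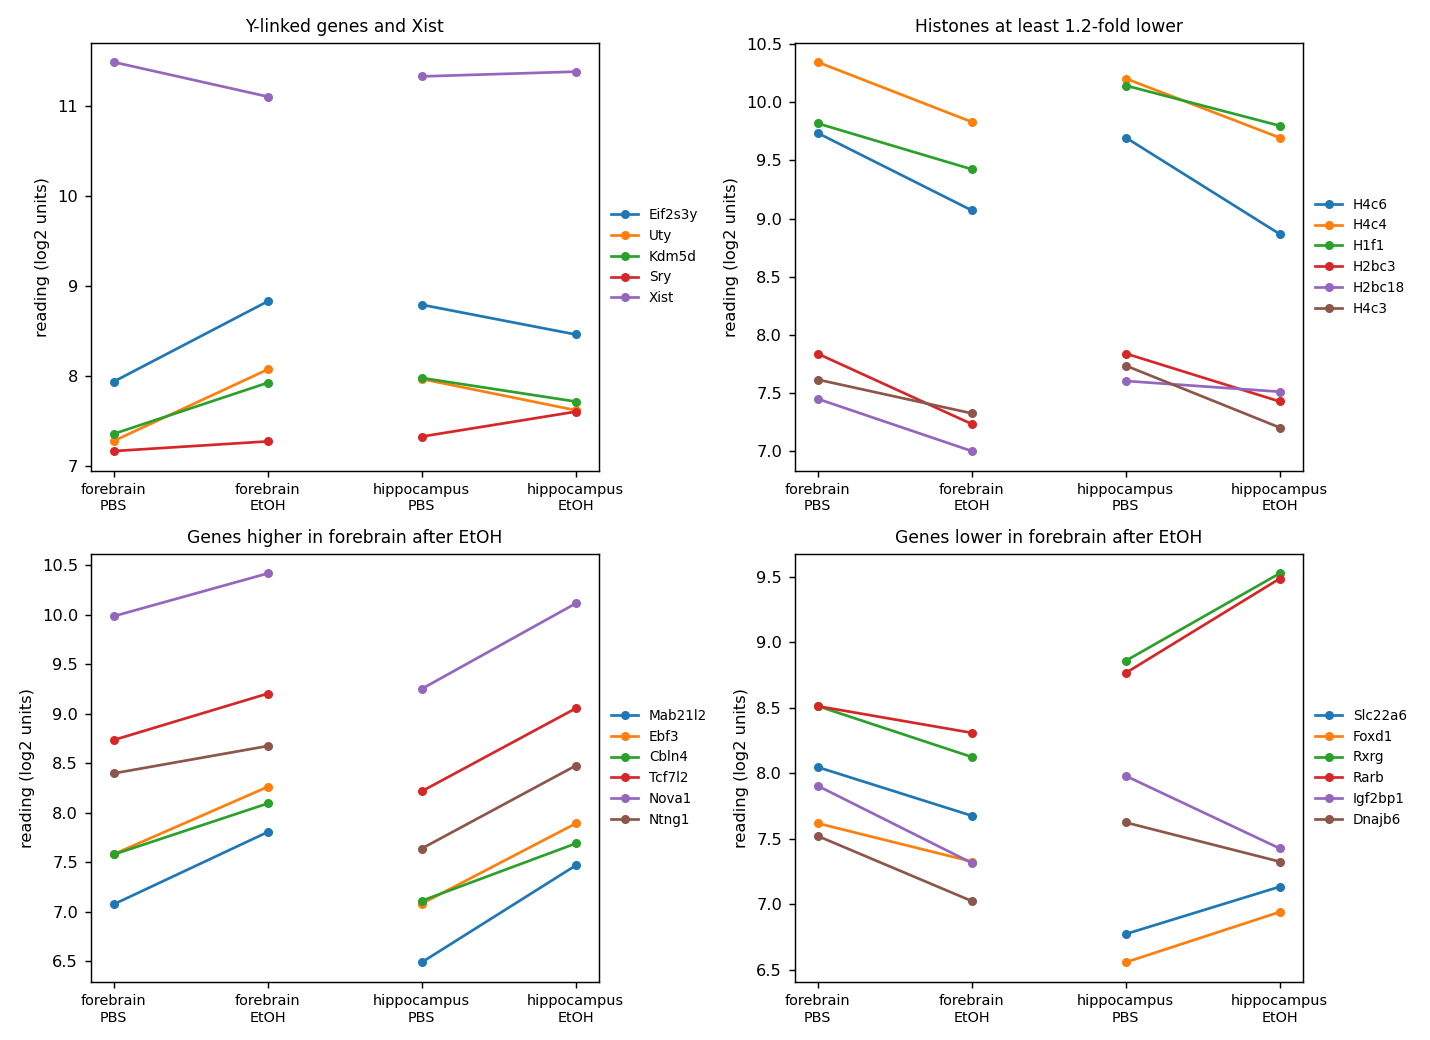
Deposited readings (vertical axis, log2 units) on each of the 4 arrays (horizontal axis) for Y-linked genes and Xist, 6 histone genes, 6 genes higher and 6 genes lower in forebrain after EtOH; each point is 1 array and lines join PBS to EtOH within a tissue. The Y-linked genes Eif2s3y, Uty and Kdm5d slope up in forebrain and down in hippocampus. The 6 histones, picked for being lower in forebrain, slope down in both. Slc22a6, Foxd1, Rxrg and Rarb slope down in forebrain and up in hippocampus.

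Telencephalon genes read lower and thalamic genes higher after EtOH. All 8 kept telencephalon genes were lower on the forebrain EtOH array, with a median of -0.07. Bcl11b, a factor of subcerebral and striatal projection neurons, read 10.21 and 10.01, and Six3, an anterior forebrain factor, 7.32 and 7.12. The others lay between -0.02 and -0.10, within the disagreement of probe sets, and 7 of 8 were lower with kept-gene centring. Of 12 kept thalamic genes 10 were higher, with a median of 0.13. After Tcf7l2 (8.73 and 9.20) came the netrin-related gene Ntng1, whose probe sets differed by 0.28 and 0.20, and the nuclear receptor gene Rora, which read 7.55 and 7.80. The vesicular glutamate transporter gene Slc17a6, a member of the thalamic list, read 10.21 and 10.44. It also read high on the hippocampus PBS and EtOH arrays, at 9.76 and 10.04. Another vesicular glutamate transporter gene, Slc17a7, went the other way in forebrain, at 8.96 and 8.66. Calb2, which encodes a calcium-binding protein, was 0.17 higher.

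Genes of midbrain and hindbrain pointed the same way at low levels. Of 19 midbrain and hindbrain genes 16 were higher, though 18 of the 19 lay below the filter, where 51.4% of all 8925 genes were higher and 4.54% at least 1.2-fold higher. Of those 18, 15 were higher and 5 at least 1.2-fold higher, with none 1.2-fold lower. Tfap2b read 6.33 and 7.06, the midbrain and cerebellum gene En2 5.69 and 6.22, Gata3 6.16 and 6.56, Pou4f1 5.32 and 5.68, and Hoxa5 4.83 and 5.17. In hippocampus Tfap2b, En2, Gata3 and Pou4f1 were higher as well, by 1.34, 0.16, 0.77 and 0.36, and Hoxa5 differed by -0.02. The Hox genes, Hoxa5 among them, were near the background: of 36 below the filter 23 were higher, with a median of 0.04, and 2 (5.56%) were at least 1.2-fold higher. The 5 kept Ebf and Mab21 genes had 4 higher, with a median of 0.14, which became -0.04 under the 75th percentile filter, where Mab21l2 and Ebf3 no longer count. Of 4 kept Zic genes 3 were higher, led by Zic1 at 0.22. The hypothalamic gene Nkx2-4 differed by 0.36, and 5 of 6 kept hypothalamic genes were higher with a median of 0.03. Cajal-Retzius and hem genes were split, 4 and 4. Their median of -0.05 became 0.07 without the filter and 0.02 with the filter on the forebrain arrays. Whether the dissected pieces held different amounts of these regions was not tested.

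**Figure D3:**
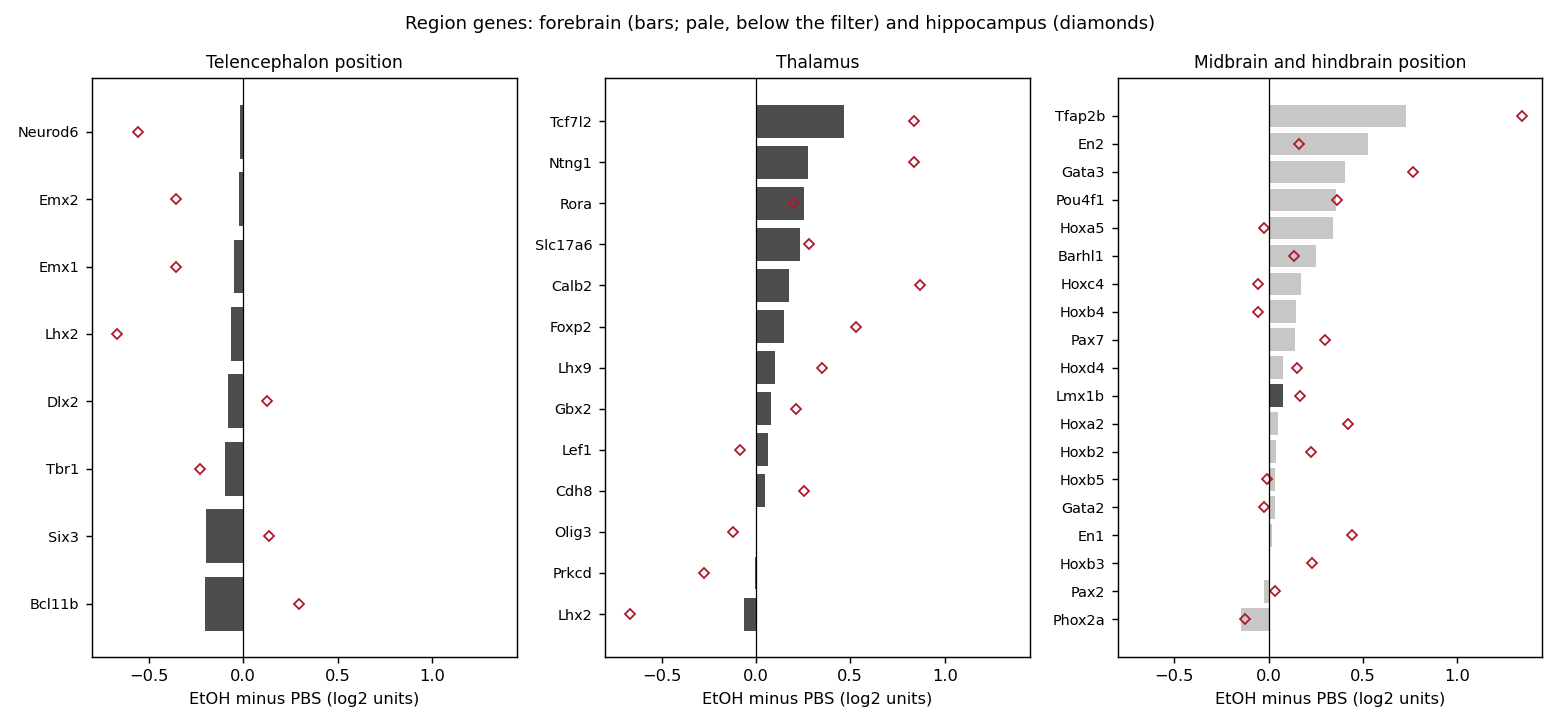
Differences (EtOH minus PBS, log2 units) of telencephalon genes, thalamic genes and midbrain and hindbrain genes; bars are forebrain, dark for kept genes and pale for genes below the filter, and open diamonds are hippocampus. All 8 telencephalon bars point to lower values, 10 of 12 kept thalamic bars to higher values, and 16 of 19 midbrain and hindbrain bars to higher values.

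Neuronal identity genes of the cortex and striatum tended to be lower by small amounts, beside 53.8% lower among all kept genes. Of 31 kept excitatory neuron factors, all transcriptional regulators, 22 read lower, with a median of -0.04 that became -0.02 (18 of 31 lower) with kept-gene centring. Fezf2, which specifies subcerebral neurons, differed by -0.22 and Nfia by -0.16. Foxp2, which is also on the striatal list, went the other way at 0.15. Pou3f2, an upper-layer factor, stood out at 0.27 by its highest probe set but at -0.05 by the next. Genes of the GABAergic interneuron lineage were lower for 16 of 24, with a median of -0.08. The lineage factor gene Lhx6 differed by -0.25 and Lhx8 by -0.18, while Calb2 differed by 0.17. Striatal projection neuron genes were lower for 11 of 16 with a median of -0.06, and in hippocampus 16 of 16 were higher. Hippocampal field genes were higher for 10 of 15, with a median of 0.03 and neurotensin, Nts, at 0.23.

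Synaptic genes were mostly higher in some groups and evenly split in others. Some cerebellins join presynaptic neurexins to glutamate receptors of the delta type. The cerebellin genes were led by Cbln4 (7.58 and 8.09), Cbln2 (9.11 and 9.44) and Cbln1, which differed by 0.25. With their receptors 5 of 6 kept genes were higher, and the median was 0.15. Glutamate and GABA-A receptor subunits were higher for 21 of 27, with a median of 0.06. The NMDA receptor subunit Grin3a read 9.03 and 9.37, and Grm8, Grin2d and Grm4 differed by 0.26, 0.24 and 0.23. Presynaptic genes were higher for 14 of 18 with a median of 0.03, and for 12 of 18 with a median of 0.02 after quantile normalization. Potassium channels were higher for 30 of 52 with a median of 0.03, voltage-gated sodium and calcium channels for 14 of 26 with a median of 0.01, and immediate early genes were split 5 and 5 with a median of -0.01. The neuropeptide and granin genes were higher for 16 of 20 with a median of 0.06, led by Cck and Nts at 0.23 each. Sst and Npy, peptides of interneurons, were on the lower side at -0.17 and -0.15.

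Glial genes were higher and those of vessels and coverings lower. Of 13 kept genes of the oligodendrocyte lineage 12 were higher, with a median of 0.14: the progenitor factor Olig1 read 8.45 and 8.75, and the myelin enzyme gene Cnp and the receptor gene Gpr17 each differed by 0.23. Sox10, a defining factor of the lineage, named after its values were seen, was the exception at -0.09. Astrocyte genes were higher for 13 of 16 with a median of 0.11, led by brevican, Bcan (9.03 and 9.33), and clusterin, Clu (9.10 and 9.35). Id3 differed by -0.25, and the median was 0.09 after quantile normalization. Genes of choroid plexus were higher for 7 of 10 with a median of 0.06, led by Otx2 at 0.33, while Kcnj13 differed by -0.22. This choroid plexus list had 9 of 10 genes lower in hippocampus, with Otx2 at -0.25. Its median there was -0.29, against -0.08 for all kept genes.

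Meningeal fibroblast genes were lower for 14 of 15, with a median of -0.11. Slc22a6, an organic anion transporter, read 8.05 and 7.68, the transcription factor gene Foxd1 7.62 and 7.33, and the collagen gene Col1a1 9.67 and 9.43. The same list had 12 of 15 genes higher in hippocampus, with a median of 0.29. Foxd1 passed the filter only through its forebrain readings, as its hippocampus readings of 6.56 and 6.94 lay below the filter value. Endothelial genes were lower for 12 of 16 (median -0.07), such as the vascular cadherin gene Cdh5 at -0.25 and the VEGF receptor gene Kdr at -0.23. Of 7 pericyte and smooth muscle genes 6 were lower (median -0.06), with the smooth muscle actin gene Acta2 at -0.24. Microglial genes were split, with 5 of 8 higher and a median of 0.01. The part that the amount of meninges or vessels on the dissected tissue had in these values was not tested.

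**Figure D4:**
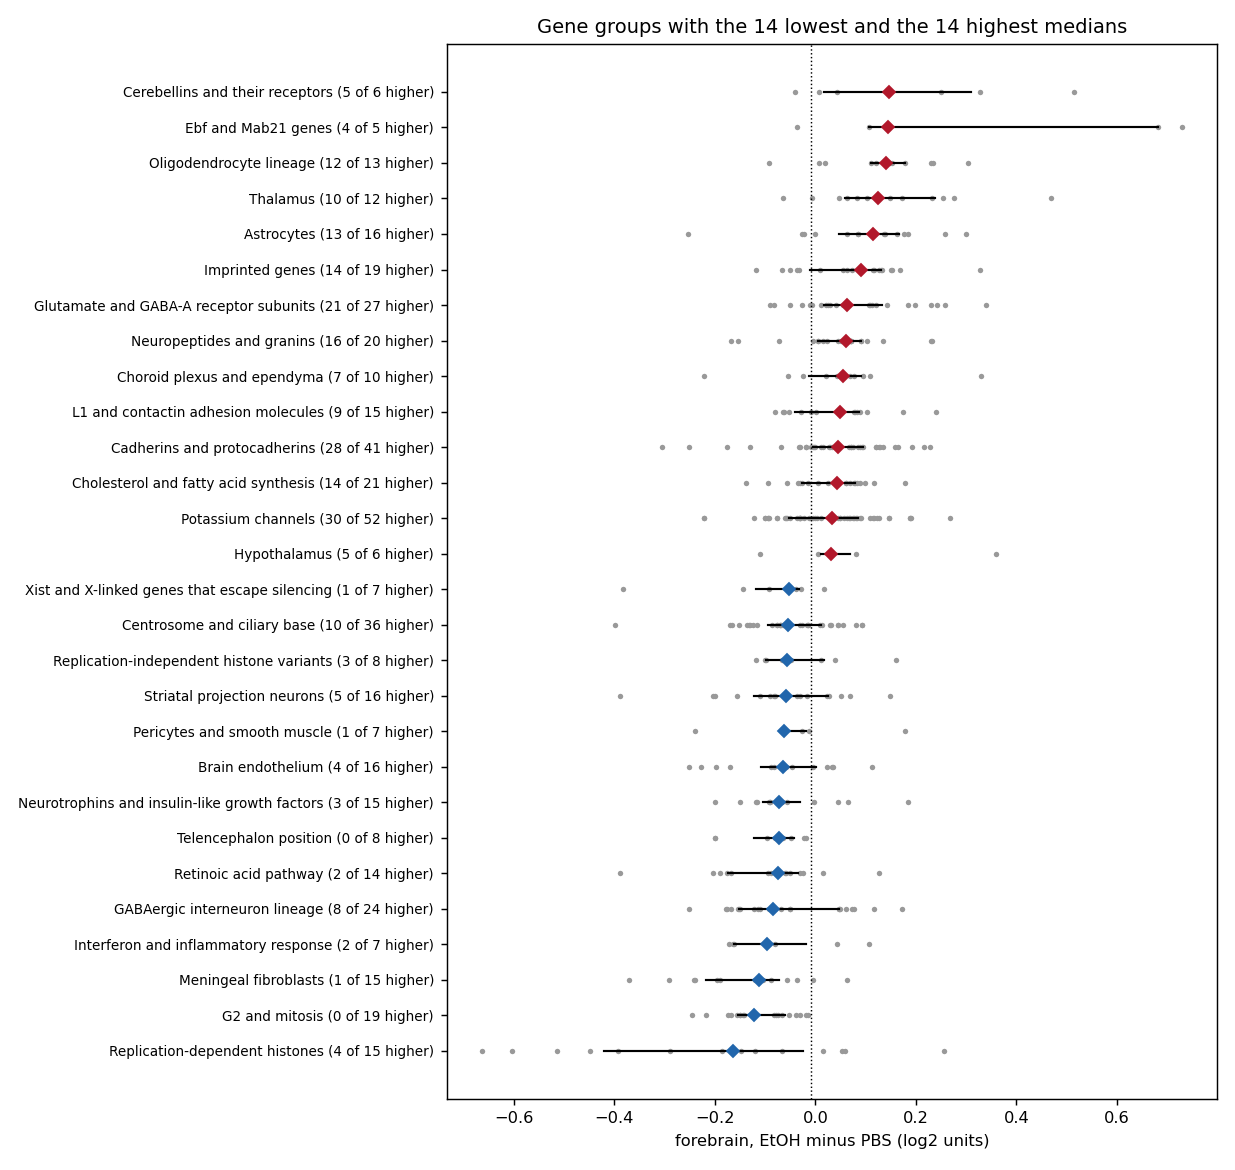
Forebrain differences (EtOH minus PBS, log2 units) by gene group, for the 14 lowest and the 14 highest medians among groups with at least 5 kept genes; grey points are genes, black bars the interquartile range, diamonds the median, and the dotted line the median of all kept genes. Medians run from -0.16 for replication-dependent histones to 0.15 for cerebellins and their receptors, and most single genes lie within 0.2 of 0.

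Genes of alcohol handling differed little between the arrays, and those of retinoic acid signalling read lower. Retinoic acid is made from vitamin A by dehydrogenases, acts on nuclear receptors and patterns the early brain. Of 14 kept genes of this pathway 12 were lower, with a median of -0.07. Rxrg, a retinoid X receptor, read 8.51 and 8.12, the receptor gene Rarb 8.51 and 8.31, and the synthesizing enzyme gene Aldh1a2, which is also a meningeal marker in the list above, 8.26 and 8.07. The binding protein gene Crabp1 differed by -0.18 and the retinol dehydrogenase gene Rdh10 by -0.17. Another synthesizing enzyme, Aldh1a1, named after its values were seen, lay below the filter and read 6.51 and 6.98. Rxrg and Rarb are also striatal genes, and both were higher in hippocampus, by 0.67 and 0.72. Of 10 kept alcohol and aldehyde dehydrogenases and related enzymes 7 were higher and 2 lower, and the widest difference was 0.11 for Aldh3a2.

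Stress and epigenetic groups were mixed. Antioxidant genes were higher for 17 of 24 with a median of 0.03, though the cystine transporter gene Slc7a11 differed by -0.23 and Nfe2l2, the master regulator, by -0.19. The unfolded protein response was split 9 and 9 with a median of 0.00, and p53 targets and apoptosis genes were lower for 9 of 13 with a median of -0.05. Of 7 kept interferon and inflammatory genes 5 were lower, with a median of -0.10, led by Ifitm3 at -0.17. Hypoxia and glycolysis genes were lower for 13 of 21 (61.9%), against 53.8% of all kept genes, and their median was -0.02. The oxygen sensor gene Egln3 lay at -0.27, and Hk1 at 0.14 by its highest probe set. DNA methylation genes and readers were lower for 11 of 12, with a median of -0.04. The demethylase gene Tet3 differed by -0.25 (-0.09 as the median of its probe sets) and the maintenance factor gene Uhrf1, which is linked to replication, by -0.22. The methyltransferase gene Dnmt1, named after its values were seen, lay at 0.01.

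Imprinted genes were mostly higher and growth factor genes mostly lower, while guidance genes leaned lower by small amounts. Imprinted genes, many of which act on fetal growth, were higher for 14 of 19 with a median of 0.09. Nap1l5 read 9.56 and 9.89, and Sgce and Plagl1 differed by 0.17 and 0.15. Insulin-like growth factor and neurotrophin genes were lower for 12 of 15 with a median of -0.07, with Igfbp4 at -0.20 and Igf1 at -0.15. Semaphorins, plexins and neuropilins, which steer axons and vessels, were lower for 21 of 27, with a median of -0.04 and Plxnd1 at -0.24. Only 16 of 27 were lower with kept-gene centring. Of 32 ephrin, Slit, Robo and netrin genes 21 were lower, with a median of -0.05. Wnt genes were split, with 15 of 25 lower and a median of 0.00, and Tcf7l2 stood apart from them. In all, 58 lists had at least 5 kept members: 9 medians were above 0.05, 16 were below -0.05 and 33 lay between.

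Among 90 kept microRNA genes 3 were at least 1.2-fold higher and 1 lower, against 0.699% and 0.508% of all kept genes. The probe set of Mir692-1 read 9.45 on the forebrain PBS array and 10.04 on the EtOH array, and 9.61 and 10.13 in hippocampus. Mir194-1 and Mir680-1 differed by 0.27 each and Mir7-1 by -0.29. What these probe sets read, the mature form or a longer transcript, was not tested. The mature sequences of these 4 genes, from RefSeq on GRCm38.p6, are shown so that the seeds can be compared. Capitals mark the seed, bases 2 to 8, and the 6 sequences have 6 different seeds, so no shared seed joins the genes.
mmu-miR-692: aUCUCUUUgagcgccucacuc
mmu-miR-194-5p: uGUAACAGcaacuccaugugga
mmu-miR-194-1-3p: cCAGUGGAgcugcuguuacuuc
mmu-miR-680: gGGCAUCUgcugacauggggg
mmu-miR-7a-5p: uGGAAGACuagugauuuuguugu
mmu-miR-7a-1-3p: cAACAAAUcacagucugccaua

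The hippocampus arrays share no array with the forebrain pair and give each gene a second reading, though litters may be shared. Of the 77 genes 1.2-fold higher in forebrain, 34 (44.2%) were also 1.2-fold higher in hippocampus, where 4.49% of kept genes were, and these make up 6.87% of the 495 hippocampus genes. Of the 56 lower genes 23 (41.1%) were also lower there, against a background of 11.2%, and they are 1.87% of 1229. Mab21l2, Ebf3, Cbln4, Tcf7l2, Rit2, Nova1 and Hap1 were among the shared ones and Car8 was not. Of these, Mab21l2 passed the filter only through its readings on the EtOH arrays. Nova1 read 9.25 and 10.12 in hippocampus, Hap1 7.86 and 8.73, Rit2 8.49 and 9.33, and Tcf7l2 8.22 and 9.05. For these 4 the hippocampus PBS array was the lowest of the 4. Cbln2 differed by 1.03 there and the neurofilament gene Nefl, named after its values were seen at 0.35 in forebrain, by 0.54. Among shared lower genes were H4c6, H4c4, H2bc3, H4c3, H1f1, Igf2bp1 and Cep76. In all, 9 genes were 1.2-fold apart in opposite directions. Eif2s3y, Uty, Xk and Kctd4 were higher in forebrain and lower in hippocampus, and Rxrg, Slc22a6, Foxd1, Selenop and Adamts12 the reverse. Xk, Kctd4, Selenop and Adamts12 are named after their values were seen.

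**Figure D5:**
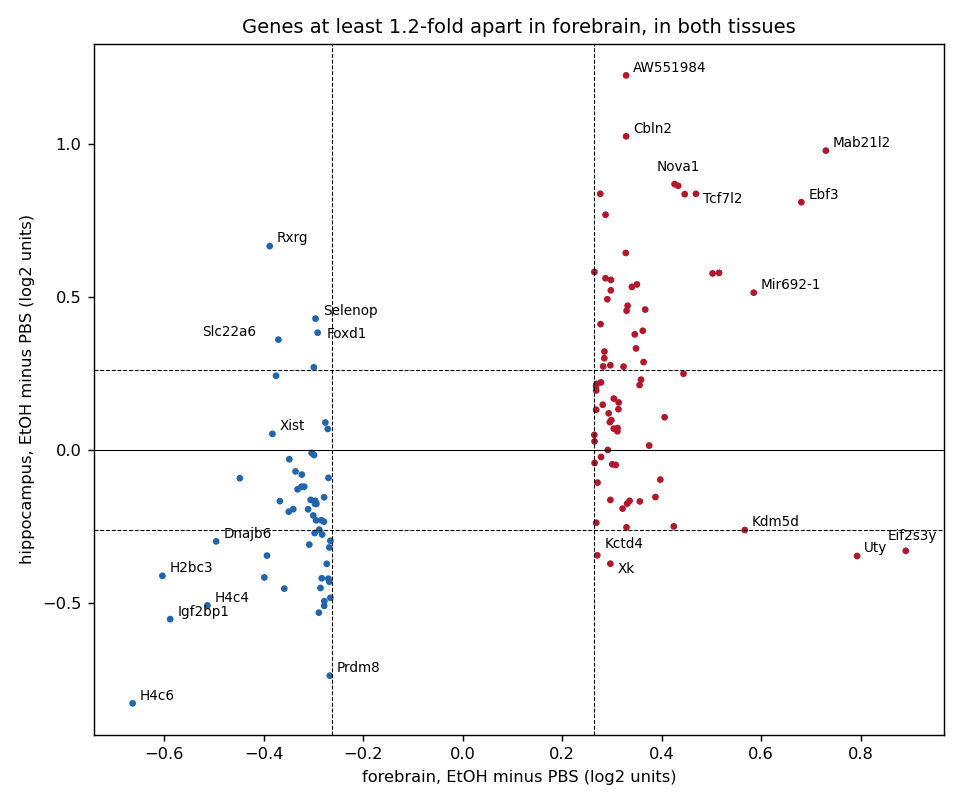
Hippocampus difference (vertical, EtOH minus PBS, log2 units) against forebrain difference (horizontal, same units) for the 133 genes at least 1.2-fold apart in forebrain; each point is a gene, red higher and blue lower in forebrain, and dashed lines mark 1.2-fold. Points past the lines in the upper right number 34 and in the lower left 23, while 9 lie past them in opposite directions, among them Eif2s3y, Uty and Rxrg.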

How the data were processed

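Values are the authors' deposited log2 readings of an Affymetrix mouse gene array, 1 array a group. Per the labels' protocols, Trizol was used for extraction and 6 ug of total RNA went into biotinylated cRNA. The submitters' processing notes name MAS5, without its version or settings. The scale was read from the values (1.58 to 13.96). Probe sets were named from the platform annotation: 21789 of 35557 had 1 symbol, 1621 several and 12147 none, and 21698 matched RefSeq. Each gene took its probe set with the highest mean, kept where that mean over 4 arrays reached the median of all probe sets (7.11). Differences are EtOH minus PBS, counted at 1.5-fold and 1.2-fold without a test, and the number of arrays limits precision. The scripts were tested on simulated data. Python 3.11.15, numpy 2.4.6, pandas 2.3.3 and matplotlib 3.10.9 were used.

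The members and the 66 gene lists were chosen with earlier results of these data known. Named genes were the 15 highest and 15 lowest differences, the 8 highest and 8 lowest relative to 20 level bins, the 5 highest and 5 lowest against hippocampus, up to 5 per list with at least 3 kept members, all Y-linked genes, Xist and the position genes, leaving out predicted or clone names unless stated. Alternatives were 2 array centrings, quantile normalization, other filters and folds, and the median over probe sets.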

Additional observations from a re-analysis of the deposited data

Results flagged for a closer look

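Of the named genes 5 were at least 1.2-fold apart in both tissues and in opposite directions, each by 1 array a side, so the difference between tissues was not tested. The forebrain difference minus the hippocampus difference was 1.22 for Eif2s3y (0.89 and -0.33), 1.14 for Uty (0.79 and -0.35), -0.68 for Foxd1 (-0.29 and 0.38), -0.73 for Slc22a6 (-0.37 and 0.36) and -1.05 for Rxrg (-0.39 and 0.67). Foxd1 read below the filter value on both hippocampus arrays, at 6.56 and 6.94, and Slc22a6 on the hippocampus PBS array, at 6.77.

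Probe sets with several symbols or none were not named and enter no count above. Among 5575 of them at or above the filter value, 42 were at least 1.5-fold higher on the forebrain EtOH array and 32 at least 1.5-fold lower, with a standard deviation of 0.197 against 0.0941 for named genes.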

How the results depend on the processing

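No paired analysis was possible because each group has 1 array and the labels carry no replicate numbers, and no array could be left out. Array centring over all probe sets, quantile normalization, the filter on the forebrain arrays and the median over probe sets left all 4 counts within 1.5 times. Without a filter the counts at 1.5-fold were 24 higher and 22 lower and at 1.2-fold 482 and 452, since 8925 weaker genes enter. Under the 75th percentile filter they were 1, 1, 21 and 9 among 5549 genes. Kept-gene centring, added after seeing the data, left 1 gene 1.5-fold lower. At 1.3-fold 17 genes were higher and 10 lower, and at 2-fold 0 and 0. The median of Cajal-Retzius genes turned from -0.05 to 0.0711 without a filter and to 0.0194 with the forebrain filter, and that of Ebf and Mab21 genes from 0.14 to -0.0369 under the 75th percentile filter, as members enter or leave. Of the named genes, 3 moved by more than 0.105 under the median over probe sets (Pou3f2 to 0.11, Tet3 to -0.09, Wnt4 to 0.00). Weak signals limit single genes, and 1 array a group leaves no spread between animals.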

Other observations

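Cadherins and protocadherins, which let neurons recognize each other, were higher for 28 of 41 kept genes with a median of 0.05. Their members spread widely: the clustered genes Pcdhb2 and Pcdhb6 lay at 0.23 and 0.22 and Pcdhb5 at -0.31. Potassium channel genes were higher for 30 of 52 with a median of 0.03, led by Kcnc4 at 0.27, while Kcnh3 lay at -0.22. Ephrins, Slits, Robos and netrins were lower for 21 of 32 with a median of -0.05, with the B-class ligand genes Efnb2, Efnb3 and Efnb1 at -0.21, -0.18 and -0.14. Serine and folate metabolism was split 8 and 10, with Phgdh, the first enzyme of serine synthesis, at -0.25. The hedgehog pathway inhibitor gene Sufu lay at -0.24. Cytosolic ribosomal protein genes were lower for 36 of 55 with a median of -0.02, and for 43 with a median of -0.05 after quantile normalization. Small nucleolar RNA genes were split 18 and 20 in forebrain, with Snord35b at -0.36, Snord52 at -0.27 and Snord42b at 0.21.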
